A study of Mus musculus with 10 samples.

Results

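Semaphorins are guidance proteins that were first described on growing axons, and plexins and neuropilins are their cell-surface receptors. The genes described here were the protein-coding genes named as semaphorins (Sema3 to Sema7) or as plexins (Plxna to Plxnd), together with the neuropilins Nrp1 and Nrp2 and with Draxin and Astn2. They numbered 33 of the 21908 protein-coding genes and of the 56980 rows in the deposited count table: 20 semaphorins, 9 plexins, 2 neuropilins, Draxin and Astn2. The semaphorins and plexins were taken whole by symbol. Nrp1, Nrp2, Draxin and Astn2 were chosen by their measured levels and fold changes between KO and WT in these same libraries, so their differences are given as a description with no test.

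The cells were macrophages from WT mice or from mice with Jaml, which encodes a junctional adhesion molecule-like immune receptor, knocked out in macrophages (JAMLM-KO, called KO here). All cells were stimulated with LPS, the lipopolysaccharide of bacterial walls (100 ng/ml, 8 h), followed by ATP (5 mM, 30 min), so no unstimulated cells enter any value. RNA was sequenced in 10 libraries, 5 per genotype, holding 19319512 to 22766319 counts each. The genotype label of the KO samples reads knockdown where their titles and the design text read KO. The sources used here do not give the tissue of origin, the strain, sex and age of the mice, the Cre line or the number of animals. The 5 KO columns were assigned by elimination, because no label spells out their heading. Jaml could not check the genotype: only WT 1 and KO 4 held reads of it, 2 each, and the other 8 libraries held 0. That is under the 3 counts taken as the floor, which correspond to 0.132 to 0.155 CPM (counts per 1000000 counts of a library).

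Secreted class 3 semaphorins generally bind a neuropilin, which passes the signal on through a plexin of the A group, while Sema3e can bind Plxnd1 directly. The membrane-bound classes mostly bind plexins without a neuropilin, and Sema4d is the classical ligand of Plxnb1 and Plxnb2. Inside the cell a plexin switches off small GTPases of the Ras and Rap group and loosens adhesion and the actin skeleton; in the immune system the same proteins take part in myeloid cell migration and in contacts between antigen-presenting cells and lymphocytes. Neuropilins also bind VEGF-family growth factors together with VEGF receptors. Draxin is a secreted repulsive guidance protein that binds the netrin receptor DCC, and Astn2 encodes an astrotactin known from the migration of young neurons along glia.

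All 33 genes had at least 1 count, and 27 had more than 3 counts in each of the 10 libraries. The same 27 passed the low-count filter and were tested: 14 of 20 semaphorins, 9 of 9 plexins, both neuropilins, Draxin and Astn2. The other 6 were semaphorins with 4 to 60 counts over all 10 libraries. Sema5b had 4 counts in all, Sema4f had 14, Sema6a had 27, Sema3d had 54, Sema4g had 57 and Sema3g had 60, and in no library did any of these exceed 16. Sema7a (121 counts) and Sema6d (126 counts) lay just inside the filter.

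Levels between genes were compared per length, as CPM per kilobase of the gene length implied by the deposited FPKM values. Receptors led the order in WT macrophages. Plxna1 stood first with 210 CPM per kilobase, followed by Nrp2 with 134, Plxnd1 with 121 and Plxnb2 with 58.0. The most abundant ligands were Sema4d with 41.4 and Sema4a with 24.8 CPM per kilobase. Plxnc1 (8.31), Nrp1 (6.98) and Sema4b (6.75) followed, and every class 3, class 5 and class 7 semaphorin that was tested lay at or under the 0.562 CPM per kilobase of Sema3c. Astn2 (0.280) and Draxin (0.267) were among these low genes in WT cells, and in KO cells they lay at 1.12 and 0.889 CPM per kilobase. Plxna1, Nrp2, Plxnd1 and Plxnb2 kept the highest mean levels in KO cells (175, 95.4, 122 and 54.8), where Nrp2 lay under Plxnd1.

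**Figure D1:**
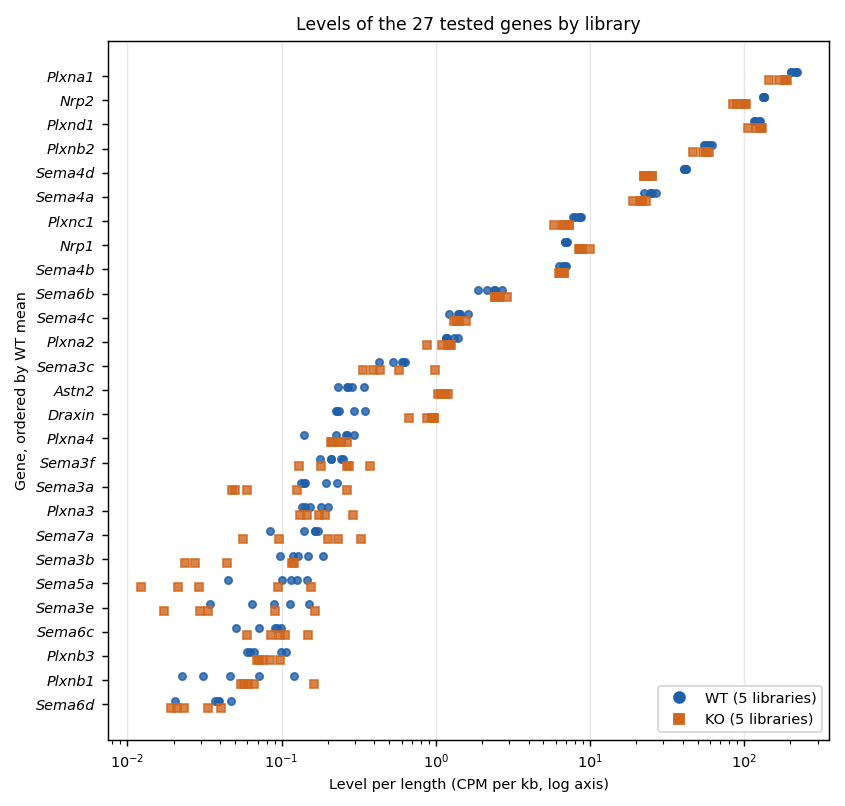
Level of each of the 27 tested genes in each library, in CPM per kilobase of gene length on a log axis, with WT libraries as circles and KO libraries as squares. Genes are ordered by their WT mean, from Plxna1 (210) at the top to Sema6d (0.0365) at the bottom, and the KO squares of Astn2 and Draxin lie to the right of all WT circles.

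In sum over the 33 genes, the libraries held 6870 ± 173 CPM in WT and 5676 ± 470 CPM in KO (SD, n = 5 each). WT libraries ranged from 6673 to 7072 CPM and KO libraries from 4934 to 6040, so the groups did not overlap. The sum includes Nrp1, Nrp2, Draxin and Astn2, which were chosen by their difference in this same contrast, so it is a description. The plexins by themselves did overlap, at 3913 to 4288 CPM in WT and 3082 to 3924 CPM in KO. The sum rests on a few abundant genes: plexins gave 4092 ± 166 CPM in WT and 3653 ± 350 in KO, neuropilins gave 1940 ± 17.8 and 1428 ± 109, and class 4 semaphorins gave 803 ± 20.1 and 555 ± 28.3. In bulk RNA, fewer cells of a type and less RNA per cell cannot be told apart.

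Of the 23 tested semaphorins and plexins, 4 were called lower in KO (Sema4d, Sema4a, Plxna1 and Plxnc1), 0 were called higher and 19 were not called at an adjusted p under 0.05 (edgeR quasi-likelihood test, Benjamini-Hochberg over all 14436 genes tested). The 4 make up 17.4% of the 23, against 15.0% of all tested genes called lower, and 14.1% of all tested genes were called higher. The median log2 fold change was -0.04 over the 23 genes and 0.01 over all genes tested. The groups did not overlap for 3 of the 23, all lower in KO (Sema4d, Plxna1 and Plxnc1), where 12.4% of all tested genes were separated downwards and 10.9% upwards. Scaling by library totals alone moved the median of all genes from 0.01 to 0.12, and relative to that scale 2 of the 23 were called lower (Sema4d and Plxnc1) and 2 higher (Plxnd1 and Sema6b), beside 9.44% of all tested genes called lower and 29.2% called higher.

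**Figure D2:**
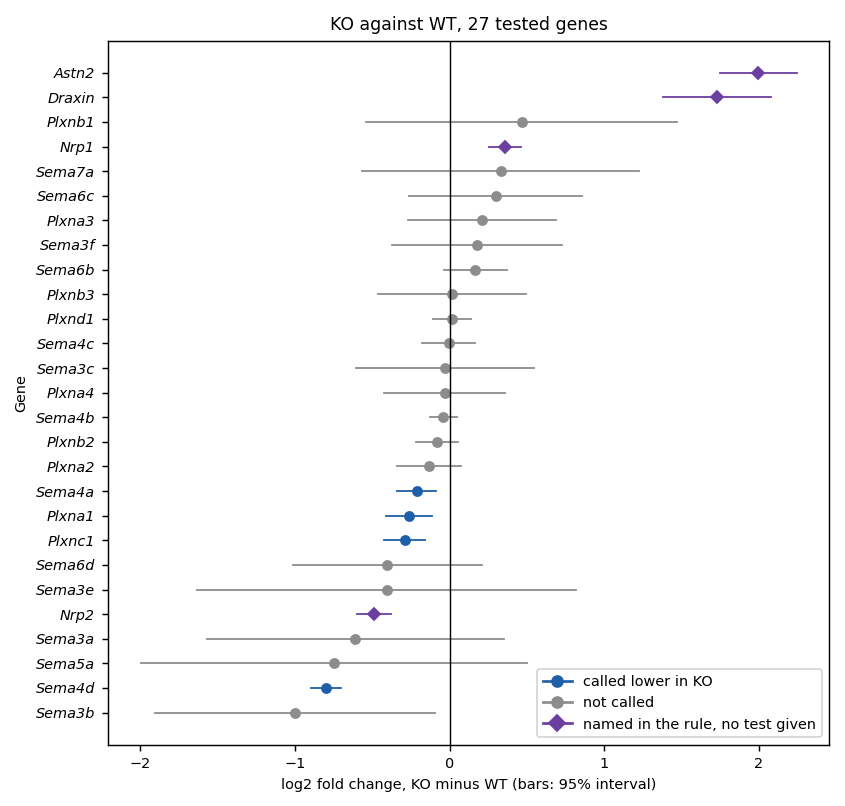
The log2 fold change (KO minus WT) of each of the 27 tested genes with its 95% interval, from Astn2 (1.99) to Sema3b (-1.002). Blue circles are the 4 genes called lower, grey circles the 19 not called and purple diamonds the 4 genes named one by one, for which no test is given. Those 4 were chosen by this contrast, so their intervals are a description and cannot be read as a test.

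The 5′ flanks of the genes on which the account turns are shown first, as the 250 bases before the annotated start in RefSeq (mouse build GRCm38.p6), 5′ to 3′ on the gene's strand. The neuropilins are shown because they moved apart, Draxin and Astn2 because they had the highest fold changes, and Plxnc1 because its window holds the letters of an interferon-stimulated response element (ISRE). The windows were chr8:128358823-128359072 on the plus strand for Nrp1, chr1:62703067-62703316 on the plus strand for Nrp2, chr4:148130699-148130948 on the minus strand for Draxin, chr4:66404484-66404733 on the minus strand for Astn2 and chr10:94944846-94945095 on the minus strand for Plxnc1. Capitals mark the motif.
Nrp1: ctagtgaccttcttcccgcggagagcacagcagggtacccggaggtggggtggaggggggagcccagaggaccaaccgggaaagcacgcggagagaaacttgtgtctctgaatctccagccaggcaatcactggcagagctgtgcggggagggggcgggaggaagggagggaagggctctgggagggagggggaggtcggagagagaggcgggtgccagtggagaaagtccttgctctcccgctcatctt
Nrp2: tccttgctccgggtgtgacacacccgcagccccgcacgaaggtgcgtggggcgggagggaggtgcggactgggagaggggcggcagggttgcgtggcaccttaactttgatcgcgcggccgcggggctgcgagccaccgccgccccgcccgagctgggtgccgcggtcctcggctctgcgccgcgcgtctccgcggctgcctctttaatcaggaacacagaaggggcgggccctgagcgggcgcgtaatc
Draxin: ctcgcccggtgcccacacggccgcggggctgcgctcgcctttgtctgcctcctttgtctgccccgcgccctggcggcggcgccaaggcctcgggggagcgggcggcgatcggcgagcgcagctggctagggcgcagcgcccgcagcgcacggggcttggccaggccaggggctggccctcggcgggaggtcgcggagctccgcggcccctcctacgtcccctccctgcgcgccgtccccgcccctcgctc
Astn2: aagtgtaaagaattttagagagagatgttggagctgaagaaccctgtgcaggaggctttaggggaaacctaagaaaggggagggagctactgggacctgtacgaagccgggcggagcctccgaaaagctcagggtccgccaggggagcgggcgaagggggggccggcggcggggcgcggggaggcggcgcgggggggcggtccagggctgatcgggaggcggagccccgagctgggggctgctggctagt
Plxnc1: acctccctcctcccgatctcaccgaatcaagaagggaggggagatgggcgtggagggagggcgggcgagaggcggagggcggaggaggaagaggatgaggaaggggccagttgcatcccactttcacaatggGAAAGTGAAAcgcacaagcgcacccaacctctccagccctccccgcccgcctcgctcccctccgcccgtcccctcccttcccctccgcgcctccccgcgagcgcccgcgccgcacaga
The motif was searched on both strands as GAAA, any 2 bases, GAAA, and in Plxnc1 it lay at positions -118 to -109 from the start. It occurred in 978 of 32851 RefSeq windows of the same length (2.98%) and, among the 28 of 33 genes that had a window, in Plxnc1 and Sema6b. A kappa-B motif, searched by name on both strands, occurred in 3.90% of all windows and in those of Sema4a and Sema4c. Base composition differed widely among the printed windows. Draxin's held 36 CpG pairs at 79.6% GC, Nrp2's held 32 at 72.4%, Plxnc1's held 22 at 68.8%, Astn2's held 19 at 66.8% and Nrp1's held 11 at 64.4%, against medians of 6 CpG pairs and 52.4% GC over all windows.

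Gene positions below are those of the deposited table, which names no build. Its starts fell within 1000 bases of the RefSeq GRCm38 start for 1 of the 33 genes, so they are not on the build of the sequences above.

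Among the ligands, 2 of the 4 tested class 4 semaphorins, Sema4d and Sema4a, were called lower, beside 15.0% of all tested genes. With 4 genes this count says little about the class. Sema4d (ENSMUSG00000021451, chromosome 13, 51839565 to 51947783), the ligand of Plxnb1 and Plxnb2 and also known as the leukocyte antigen CD100, was measured at 500, 495, 510, 514 and 506 CPM in the WT libraries. In the KO libraries it was 273, 310, 275, 310 and 280 CPM. Every KO library lay far under every WT library, with little spread within either genotype. Sema4d was thus 1.74-fold lower in KO (505 ± 7.52 against 290 ± 18.6 CPM, SD, n = 5 each), a log2 fold change of -0.80 ± 0.04 (SE, edgeR quasi-likelihood, adjusted p = 2.48e-07).

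Sema4a (ENSMUSG00000028064, chromosome 3, 88343266 to 88368489), a co-stimulatory ligand of T cells, had 236, 209, 251, 228 and 234 CPM in WT and 202, 198, 179, 215 and 204 CPM in KO. The groups overlapped, because the highest KO library (KO 4) lay above the lowest WT library (WT 2). The mean was 1.16-fold lower in KO, with a log2 fold change of -0.21 ± 0.06 (edgeR, adjusted p = 0.0148). The call was lost with library totals alone (-0.10, adjusted p = 0.155) and without KO 1 and KO 3 (-0.17, adjusted p = 0.0506).

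The other 2 tested class 4 ligands were not called. Sema4b had 56.0 ± 2.13 CPM in WT and 54.4 ± 1.90 in KO, with a 95% interval of the log2 difference from -0.13 to 0.05 (edgeR, adjusted p = 0.505). Sema4c had 10.7 ± 1.05 and 10.7 ± 0.713 CPM, with an interval from -0.18 to 0.17 (edgeR, adjusted p = 0.964). Both intervals exclude a change as large as that of Sema4d (-0.80).

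Class 6 and class 7 semaphorins, membrane-bound ligands of the A-group plexins and of Plxnc1 respectively, were low and not called. Sema6b had 11.8 ± 1.55 CPM in WT and 13.2 ± 0.980 in KO (log2 interval -0.04 to 0.37, edgeR, adjusted p = 0.216). Sema6c had 1.10 ± 0.267 and 1.35 ± 0.440 CPM (adjusted p = 0.435), and Sema6d, a ligand of Plxna1, had 0.704 ± 0.189 and 0.530 ± 0.179 CPM (adjusted p = 0.323). Sema7a had 0.519 ± 0.129 and 0.653 ± 0.390 CPM (adjusted p = 0.601). At these counts only large differences could have passed the test for the last 3 genes.

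The secreted class 3 ligands and Sema5a, a membrane-bound ligand with thrombospondin repeats, were spread widely among the KO libraries. Sema3a, the prototype collapsing factor of growth cones, had 2.42, 3.95, 2.32, 3.38 and 2.43 CPM in WT and 2.16, 0.819, 4.56, 1.03 and 0.856 CPM in KO. Sema3b had 1.58, 1.98, 1.36, 1.28 and 1.04 CPM in WT and 1.24, 0.474, 1.30, 0.294 and 0.252 CPM in KO. Sema5a had 3.06, 3.53, 2.42, 2.76 and 1.09 CPM in WT and 2.30, 0.517, 3.75, 0.294 and 0.705 CPM in KO. In each of the 3 genes KO 2, KO 4 and KO 5 lay under every WT library. KO 1 and KO 3 lay inside or above the WT range, except for Sema3a in KO 1, just under it.

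Sema3e, the Plxnd1 ligand, had 1.04, 1.76, 0.403, 1.33 and 0.745 CPM in WT and 1.06, 0.388, 1.92, 0.343 and 0.201 CPM in KO. Sema3c had 7.05, 6.68, 4.79, 6.80 and 5.91 CPM in WT and 6.44, 4.87, 11.0, 4.36 and 3.78 CPM in KO. Sema3f, which binds mainly Nrp2, had 1.77, 2.14, 1.51, 1.79 and 2.09 CPM in WT and 2.35, 1.55, 3.22, 2.26 and 1.11 CPM in KO. For Sema3e and Sema3c, KO 1 and KO 3 were again the highest KO libraries, while for Sema3f KO 4 lay close to KO 1.

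None of these 6 genes was called over all libraries. The log2 fold changes were -1.002 ± 0.41 for Sema3b (edgeR, adjusted p = 0.0947), -0.75 ± 0.57 for Sema5a (0.372), -0.61 ± 0.44 for Sema3a (0.343), -0.41 ± 0.56 for Sema3e (0.641), -0.03 ± 0.26 for Sema3c (0.950) and 0.17 ± 0.25 for Sema3f (0.657). Without KO 1 and KO 3 the estimates were -2.05 ± 0.31 for Sema3b, -2.33 ± 0.42 for Sema5a, -1.68 ± 0.24 for Sema3a, -1.72 ± 0.49 for Sema3e, -0.52 ± 0.14 for Sema3c and -0.18 ± 0.23 for Sema3f. Those libraries were singled out by the levels of these very genes, so the second set of estimates is a description and no test is given. In the fits that left out each library in turn, Sema3a (-1.24) and Sema3b (-1.33) passed the threshold without KO 3. Sema3b (-1.29) also passed it without KO 1. Both are the libraries singled out above, so these passes are a description too.

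Markers of mesothelial cells, which line body cavities, moved with these ligands. Msln had 8.28, 9.73, 5.25, 7.47 and 5.02 CPM in WT and 8.97, 1.08, 11.4, 0.441 and 0.302 CPM in KO. Krt19 had 2.76, 3.31, 1.92, 2.30 and 1.39 CPM in WT and 2.30, 0.259, 3.17, 0.196 and 0.201 CPM in KO. Both markers were thus high in KO 1 and KO 3 and low in the other 3 KO libraries, and their part in the result was not tested. Upk3b and Wt1 of the same list did not share the split: Upk3b was at 0.0981 to 0.345 CPM in all KO libraries and 1.18 to 1.71 in WT, and Wt1 ranged from 1.34 to 2.30 CPM in KO. All 9 listed mesothelial and fibroblast markers were tested. Of these, 3 were called higher and 2 lower, beside 14.1% and 15.0% of all tested genes. Their summed level, mostly Col1a1 and Col1a2, was 575 to 636 CPM in WT and 597 to 767 CPM in KO.

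**Figure D3:**
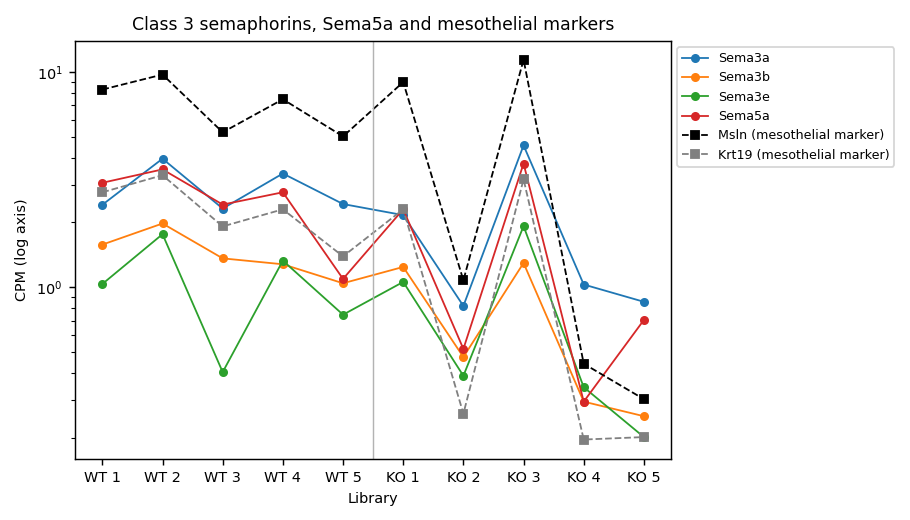
CPM on a log axis of Sema3a, Sema3b, Sema3e and Sema5a (solid lines) and of the mesothelial markers Msln and Krt19 (dashed lines) in each library; lines only join points of the same gene. KO 1 and KO 3 lie near or above the WT libraries, while KO 2, KO 4 and KO 5 are low, as for Msln with 11.4 CPM in KO 3 and 0.302 CPM in KO 5.

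Among the receptors, Plxna1 (ENSMUSG00000030084, chromosome 6, 89293296 to 89339602), the coreceptor through which neuropilins signal and a partner of the Trem2 and Tyrobp complex on myeloid cells, had 2287, 2467, 2496, 2436 and 2279 CPM in WT. In KO it had 1655, 2154, 1917, 2112 and 2121 CPM, and no KO library reached a WT library. The mean was 1.20-fold lower in KO (2393 ± 102 against 1992 ± 210 CPM), a log2 fold change of -0.26 ± 0.07 (edgeR, adjusted p = 0.0114). With library totals alone the call was lost (-0.15, adjusted p = 0.0595).

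Plxnc1 (ENSMUSG00000074785, chromosome 10, 94626728 to 94780697), the receptor of Sema7a, had 71.3, 69.4, 77.5, 76.2 and 74.6 CPM in WT and 52.1, 60.4, 59.5, 64.8 and 64.8 CPM in KO. The groups did not overlap, with the lowest WT library (WT 2) above KO 4 and KO 5. The mean was 1.22-fold lower in KO, a log2 fold change of -0.29 ± 0.06 (edgeR, adjusted p = 0.00359).

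The other 7 plexins were not called. Plxnd1, the receptor of Sema3e, had 993 ± 37.7 CPM in WT and 1004 ± 83.8 in KO, with a log2 interval from -0.11 to 0.14 (edgeR, adjusted p = 0.879). Plxnb2, a receptor of class 4 semaphorins, had 600 ± 31.1 and 567 ± 50.8 CPM, with an interval from -0.22 to 0.05 (adjusted p = 0.371). Plxna2 had 25.1 ± 2.02 and 22.9 ± 3.08 CPM (interval -0.34 to 0.07, adjusted p = 0.338). The intervals of Plxnb2 and Plxna2 still include a change as large as that of Sema4a (-0.21), while that of Plxnd1 excludes it.

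Plxna3 (1.99 ± 0.335 and 2.30 ± 0.769 CPM, adjusted p = 0.525), Plxna4 (3.39 ± 0.861 and 3.31 ± 0.338, 0.916), Plxnb1 (0.648 ± 0.437 and 0.888 ± 0.509, 0.502) and Plxnb3 (0.708 ± 0.199 and 0.718 ± 0.101, 0.980) were low in both genotypes. Plxnb1, the high-affinity receptor of Sema4d, stood at 1.795 CPM in KO 1 and at 0.604 to 0.733 CPM in the other KO libraries. Plxna4 shares its locus with the long noncoding RNA Plxna4os1, singled out after its values were seen, which had 0.990 ± 0.292 CPM in WT and 0.531 ± 0.0516 in KO (log2 fold change -0.90 ± 0.23, edgeR, adjusted p = 0.0110). The strand setting of the counting is not given, so reads of the pair cannot be told apart.

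KO 1 had the lowest of the 10 values for 8 of the 27 tested genes: Nrp2, Plxna1, Plxna2, Plxnb2, Plxnc1, Plxnd1, Sema4d and Sema6d. Over all 14436 tested genes KO 1 was the lowest library for 14.0%. This count was made after the values were seen. Without KO 1 the log2 fold change of Plxna1 was -0.21 and that of Plxnc1 was -0.24, and both stayed called (edgeR, adjusted p = 0.00539 and 0.00303).

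The neuropilins moved in opposite directions. Nrp2 (ENSMUSG00000025969, chromosome 1, 62742444 to 62857854), the coreceptor for Sema3f and for lymphatic VEGF, had 1845, 1861, 1843, 1885 and 1868 CPM in WT and 1171, 1403, 1259, 1423 and 1370 CPM in KO. WT libraries were close together and every KO library was lower, by 1.40-fold in the mean (1860 ± 17.4 against 1325 ± 107 CPM, log2 fold change -0.49 ± 0.05). Nrp1 (ENSMUSG00000025810, chromosome 8, 129085085 to 129229844), the coreceptor for Sema3a and for VEGF-A, had 79.9, 81.4, 78.6, 80.4 and 79.5 CPM in WT and 99.2, 103, 98.5, 97.7 and 115 CPM in KO. Every KO library was higher, by 1.28-fold in the mean (80.0 ± 1.05 against 103 ± 7.01 CPM, log2 fold change 0.36 ± 0.05).

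Because both neuropilins were measured in each library, their ratio does not depend on scaling between libraries. Per length, the ratio of Nrp2 to Nrp1 was 19.0, 18.8, 19.3, 19.3 and 19.4 in the WT libraries and 9.73, 11.3, 10.5, 12.0 and 9.85 in the KO libraries. Nrp2 thus remained the main neuropilin in every library, at a ratio of 19.2 ± 0.237 in WT and 10.7 ± 0.965 in KO. Both genes were named with this contrast known, so the ratio is a description too.

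Draxin (ENSMUSG00000029005, chromosome 4, 148182894 to 148215155) had 31, 22, 36, 24 and 24 counts in the WT libraries and 76, 117, 113, 101 and 91 counts in the KO libraries. As CPM these were 1.53, 1.18, 1.82, 1.23 and 1.19 in WT and 3.50, 5.04, 5.05, 4.95 and 4.58 in KO. The lowest KO library (KO 1) lay above the highest WT library (WT 3), and the mean was 3.33-fold higher in KO (1.39 ± 0.279 against 4.62 ± 0.659 CPM, log2 fold change 1.73 ± 0.16). Draxin's locus overlaps that of Mad2l2, a gene of mitosis and DNA repair, at 9.44 ± 0.489 CPM in WT and 8.40 ± 1.68 in KO (log2 fold change -0.17 ± 0.12, edgeR, adjusted p = 0.332).

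Astn2 (ENSMUSG00000028373, chromosome 4, 65299040 to 66322848) had 26, 30, 38, 29 and 30 counts in WT and 138, 139, 142, 117 and 132 counts in KO. As CPM these were 1.28, 1.60, 1.92, 1.48 and 1.49 in WT and 6.35, 5.99, 6.35, 5.74 and 6.64 in KO. The groups were far apart and tight, with a mean 4.00-fold higher in KO (1.56 ± 0.233 against 6.21 ± 0.354 CPM, log2 fold change 1.99 ± 0.11). The ubiquitin ligase gene Trim32 lies inside the Astn2 locus and had 18.3 ± 1.09 CPM in WT and 17.4 ± 1.83 in KO (log2 fold change -0.07 ± 0.08, edgeR, adjusted p = 0.563). Trim32 held 3675 counts against 821 of Astn2, and Mad2l2 held 1836 against 635 of Draxin. In both loci the neighbour thus held more counts and was not called. The strand setting of the counting is not given, so reads of each pair may be mixed, and this was not tested.

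**Figure D4:**
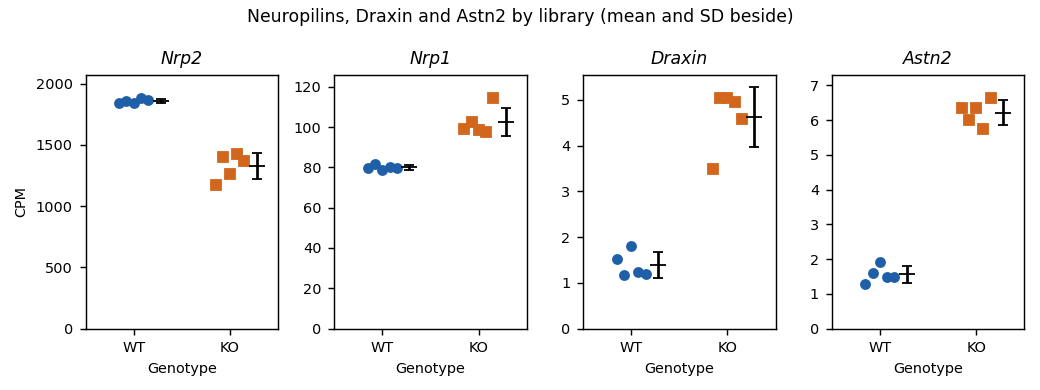
CPM of Nrp2, Nrp1, Draxin and Astn2 in each of 5 WT (circles) and 5 KO (squares) libraries on axes that start at 0, with the mean and SD beside the points. Nrp2 is lower in every KO library (1171 to 1423 CPM against 1843 to 1885), and the other 3 genes are higher in every KO library.

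Draxin and Astn2 are best known from the nervous system, so neuron and glia markers were read beside them. Of 8 such markers 1 was tested and not called (Syt1), their summed level was 0.555 to 1.73 CPM in WT and 0.259 to 1.29 CPM in KO, and Rbfox3, Snap25, Gfap, Olig2 and Mog were at 0 counts in all 10 libraries. Draxin and Astn2 together held 2.68 to 3.73 CPM in WT and 9.85 to 11.4 CPM in KO. Macrophage markers were high in both genotypes, led by Lyz2 with 18186 ± 520 CPM in WT and 17509 ± 722 in KO and by Cd68 with 2470 ± 53.5 and 2613 ± 158. The 8 summed to 24028 to 25584 CPM in WT and 23046 to 25034 in KO, mostly Lyz2, so the sum says little about the others. Called lower were Fcgr1 (182 ± 10.7 against 59.0 ± 7.63 CPM, edgeR, adjusted p = 1.76e-07) and Mertk (139 ± 5.72 against 110 ± 9.38 CPM, 0.00127). Called higher were Csf1r (log2 fold change 0.16 ± 0.04, edgeR, adjusted p = 0.00857) and Cd14 (0.13 ± 0.03, 0.00952). These genes are named after their values were seen, and 14.1% of all tested genes were called higher and 15.0% lower.

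Endothelial cells also use neuropilins and plexins. Of 8 endothelial markers 3 were tested and 1, Kdr, was called lower. The list summed to 48.4 to 56.4 CPM in WT and 38.3 to 46.7 CPM in KO, and Emcn was at 0. The sum was led by Vwf (26.7 ± 1.05 CPM in WT and 30.7 ± 3.75 in KO) and Kdr (23.1 ± 1.62 and 8.42 ± 0.955). Vwf was not called (edgeR, adjusted p = 0.0773). The lower sum in KO thus rests on Kdr and says little about the other markers. Of 5 mast cell markers 3 were tested and all 3 were called lower, with sums of 6.60 to 11.8 CPM in WT and 3.31 to 4.69 in KO, led by Tpsb2 (log2 fold change -1.05 ± 0.18, edgeR, adjusted p = 0.00102) and Cma1 (-1.31 ± 0.18, 0.000167). Of 5 neutrophil markers 1 was tested, Camp, and it was called higher, with list sums of 2.22 to 2.88 CPM in WT and 2.54 to 4.10 in KO. These calls stand beside 15.0% of all tested genes called lower and 14.1% called higher, and so few tested genes say little about a cell type. The part of these markers in the results was not tested. The sums were at most 1.23 CPM for 5 B cell markers (led by Cd79b and Pax5), 0.313 CPM for 6 T cell markers (led by Trac and Trbc2, with Cd3e at 0) and 2.12 CPM for 5 dendritic cell markers (led by Zbtb46 and Clec9a, with Xcr1 and Siglech at 0) in any library.

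The rest of the guidance machinery was described through 5 lists of 102 genes, of which 73 were tested: 7 were called higher in KO, 12 lower and 54 were not called (median log2 fold change -0.05, against 0.01 over all genes tested). These are 9.59% higher and 16.4% lower, beside 14.1% and 15.0% of all tested genes, and the small counts of each list below are given against the same background with no test between lists. Of 15 tested coreceptors and alternative receptors of semaphorins, 1 was called higher and 6 lower. Itga1, an integrin subunit that pairs with Itgb1 in the Sema7a receptor, had 4.83, 5.72, 5.85, 5.16 and 5.17 CPM in WT and 14.3, 14.9, 15.6, 15.1 and 17.0 CPM in KO. It was 2.87-fold higher in KO with no overlap (log2 fold change 1.52 ± 0.07, edgeR, adjusted p = 1.33e-07). Its partner Itgb1 was lower by far less (924 ± 37.6 against 859 ± 15.7 CPM, log2 fold change -0.11 ± 0.03, edgeR, adjusted p = 0.0350), and with library totals alone its estimate was 0.00977. The Itgb1 call was lost on leaving out any one of WT 1, WT 2, WT 4, WT 5, KO 2, KO 3 and KO 5 (edgeR, adjusted p from 0.0573 to 0.123).

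Kdr, the VEGF receptor that joins neuropilins and also an endothelial marker, had 23.0, 20.5, 24.7, 23.2 and 24.1 CPM in WT and 8.10, 9.57, 8.63, 8.82 and 6.997 CPM in KO. It was 2.74-fold lower in KO with no overlap (log2 fold change -1.45 ± 0.08, edgeR, adjusted p = 3.52e-07). The related VEGF receptors Flt1 (1.48 ± 0.397 against 0.659 ± 0.252 CPM, log2 fold change -1.15 ± 0.27, adjusted p = 0.00699) and Flt4 (5.999 ± 0.731 against 4.00 ± 0.694 CPM, -0.58 ± 0.13, 0.00601) were called lower as well. These 3 receptors were grouped after their values were seen, out of a list of 15 tested genes, beside 15.0% of all tested genes called lower. The groups of Flt1 overlapped, at 1.04 to 2.05 CPM in WT and 0.441 to 1.08 CPM in KO. Of the neuropilins, Nrp2 was lower and Nrp1 higher.

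Cd72, the receptor of Sema4d on lymphocytes, had 14.0, 11.2, 13.0, 12.7 and 15.2 CPM in WT and 6.67, 8.06, 6.84, 7.26 and 6.80 CPM in KO. It was 1.86-fold lower (log2 fold change -0.89 ± 0.09, edgeR, adjusted p = 1.7e-05), with no overlap, beside the lower Sema4d. Met, a receptor tyrosine kinase that associates with B-group plexins, had 634 ± 19.5 CPM in WT and 475 ± 27.6 in KO (-0.42 ± 0.04, edgeR, adjusted p = 2.18e-05). Trem2 and Tyrobp, the partners of Plxna1 named above and given after their values were seen, were not called (365 ± 17.2 and 395 ± 13.1 CPM, adjusted p = 0.0558, and 371 ± 57.2 and 353 ± 79.0 CPM, adjusted p = 0.768).

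Of 34 tested plexin effectors, 3 were called higher and 3 lower, and none reached a log2 change of 0.5 among those called. The 2 with the most counts over all 10 libraries, the actin-severing protein Cfl1 (752 ± 31.3 and 800 ± 35.6 CPM, edgeR, adjusted p = 0.128) and the GTPase Rhoa (488 ± 25.2 and 477 ± 23.7 CPM, 0.627), were not called. The next 3 genes are named after their values were seen, 2 of them for the largest called change in each direction. Rap1b, a GTPase that plexins switch off, fell from 522 ± 19.0 to 380 ± 18.6 CPM (log2 fold change -0.46 ± 0.04, edgeR, adjusted p = 6.98e-06). The actin-oxidising enzyme Mical1 rose from 24.3 ± 1.39 to 31.2 ± 0.621 CPM (0.36 ± 0.05, edgeR, adjusted p = 0.000139). Rac1, a GTPase that binds plexins, had 278, 273, 147, 98.9 and 276 CPM in WT and 94.5, 309, 91.7, 103 and 86.4 CPM in KO. Each genotype held both high and low libraries, and the gene was not called (log2 fold change -0.65 ± 0.40, edgeR, adjusted p = 0.268).

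The netrin, DCC, UNC5 and RGM list, which holds the pathway of Draxin, had 8 of 16 genes tested, 2 of them called lower and 0 higher. Ntn1, the netrin that DCC binds, had 3.74 ± 0.707 CPM in WT and 2.05 ± 0.783 in KO (log2 fold change -0.86 ± 0.25, edgeR, adjusted p = 0.0230), and the call was lost on leaving out WT 2, WT 3, WT 4 or KO 5 (adjusted p from 0.0504 to 0.0641). Dcc itself, looked up after the values were seen, was at 0 counts in all 10 libraries and was not tested. Ntng2, a membrane-anchored netrin, had 150 ± 1.67 and 132 ± 9.61 CPM (-0.19 ± 0.05, edgeR, adjusted p = 0.0121; with library totals alone -0.07, adjusted p = 0.161). Rgmb, a BMP coreceptor, had 25.5 ± 1.11 and 24.1 ± 3.09 CPM and was not called (0.540).

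In the Slit, Robo and srGAP list, 6 of 10 genes were tested, 1 was called higher and 1 lower. Srgap2, a membrane-bending inhibitor of Rac, had 90.9 ± 2.48 CPM in WT and 69.5 ± 2.68 in KO (log2 fold change -0.39 ± 0.04, edgeR, adjusted p = 1.51e-05), without overlap. The related Srgap1, named after its values were seen, rose from 4.52 ± 0.378 to 6.10 ± 0.646 CPM (0.43 ± 0.10, edgeR, adjusted p = 0.00507), and the secreted ligand Slit3 was not called (18.3 ± 1.96 and 14.9 ± 2.10 CPM, 0.0524) unless WT 1 or KO 2 was left out (0.0329 and 0.0174). Of 10 tested ephrins and Eph receptors of 22, 2 were called higher and 0 lower. The receptor Epha4 had 7.31 ± 0.614 and 10.2 ± 0.676 CPM (0.48 ± 0.08, edgeR, adjusted p = 0.00053), Efnb1, named after its values were seen, had 3.85 ± 0.316 and 4.91 ± 0.669 CPM (0.35 ± 0.11, 0.0361), and the ligand Efnb2 was not called (5.46 ± 0.338 and 6.03 ± 0.714 CPM, 0.283).

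**Figure D5:**
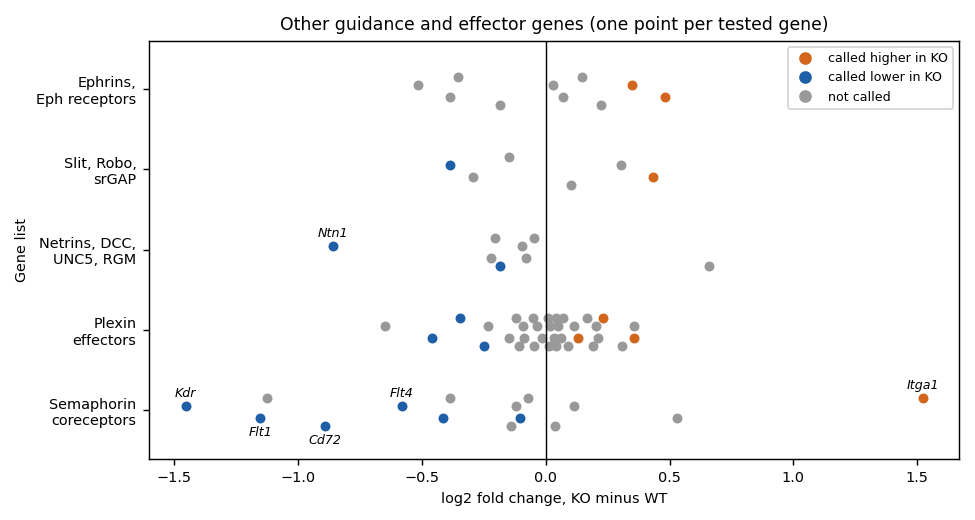
The log2 fold change (KO minus WT) of each of the 73 tested genes in the 5 wider guidance lists, 1 point per gene, coloured by call. The coreceptor list holds the extremes, from Kdr (-1.45) to Itga1 (1.52), and the plexin effectors range from -0.65 (Rac1, not called) to 0.36 (Mical1).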

How the data were processed

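RNA-seq of 10 macrophage libraries was analysed, 5 WT and 5 KO. The authors deposited whole-number counts per gene and library and, in the same table, FPKM, per the file headers. The deposited FPKM of the WT libraries equalled counts over gene length and library total (largest relative spread 4.5e-06) and served only to recover that length; 5 FPKM columns were not used. CASAVA 1.8 and TopHat2 2.0.6 and the builds mm10 and GRCm39 are named, without roles, per the submitters' processing notes. The sources used here do not give the counter, annotation or strand setting, so reads of overlapping genes may be mixed. WT columns matched the labels by name.

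Counts were tested with edgeR 4.0.16 in R 4.3.3: TMM scaling, filterByExpr (minimum count 10), quasi-likelihood F test of KO minus WT, Benjamini-Hochberg over 14436 genes, called at an adjusted p under 0.05. The biological coefficient of variation was 12.8%. CPM are TMM-scaled, SE were obtained as the estimate over the root of F, and the script was tested on simulated data. No library was a duplicate: between libraries of 1 genotype the chi-square per gene was 9.98 to 19.3, and across genotypes it was 40.8 to 59.0. The labels do not say that libraries came from separate animals, so p-values measure only the spread between libraries, which may be technical. Floors of 3 counts cover counting error only; the 95% intervals come from the fit and include the spread between libraries.

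The genes and all lists were chosen with earlier results of these data known. Named besides the 33 genes were list genes called with an absolute log2 fold change of at least 0.5, and the 2 most abundant genes per list; others are marked where they appear. Alternatives were size factors from DESeq2 1.42.0, library totals alone, a filter of at least 50 counts in 5 libraries, no filter, a replicate block, DESeq2's Wald test, limma-voom (limma 3.58.1) and leaving out each library.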

Additional observations from a re-analysis of the deposited data

Results flagged for a closer look

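In groups of 5 libraries, 4 of 86 groups had 1 library far from the others (a gap of over 0.71 of the whole range), where chance gives about 1 in 20. Nrp1 in KO 5 was at 114.6 CPM and the other KO libraries were at 97.71 to 102.5 CPM. Plxnb1 in KO 1 was at 1.795 CPM and the other KO libraries were at 0.6041 to 0.7325 CPM. Met in WT 3 was at 600.2 CPM and the other WT libraries were at 634.3 to 646.1 CPM. Rgmb in KO 5 was at 18.78 CPM and the other KO libraries were at 24.57 to 26.72 CPM.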

How the results depend on the processing

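The calls of Sema4d and Plxnc1 held under every alternative run. With library totals alone, 4221 genes were called higher and 1363 lower over all genes, 2 semaphorins and plexins were called higher (Plxnd1 0.13, Sema6b 0.28) and 2 lower, 15 genes of the wider lists were called higher, and the log2 fold change of Nrp1 was 0.47. The sign of 8 small estimates then turned: Itgb1 0.00977, Plxna4 0.0804, Plxnb2 0.0315, Rgmb 0.0378, Rhoa 0.0816, Sema3c 0.0916, Sema4b 0.0742 and Sema4c 0.11. Plxna4 was 0.00747 with limma-voom, and Sema4c was 0.0196 with no filter and 0.00533 with the stricter filter. Without KO 1 and KO 3, chosen after seeing the data and by the levels of class 3 genes, 8 semaphorins and plexins passed the threshold as lower (15.4% of all tested genes did so as lower and 12.9% as higher); 5 of the 8 are class 3 genes and Sema5a, whose levels picked the libraries, so the count is a description. Plxna3 (-0.10), Plxnb3 (-0.0319) and Sema3f (-0.18) turned sign. Leaving out each library in turn gave 4 to 6 semaphorins and plexins called lower and 0 higher. The counts above 4 arose only without KO 1 or without KO 3, the libraries picked by class 3 levels. Over these fits Plxna3 ranged from -0.00727 to 0.31, Plxna4 from -0.163 to 0.0676, Plxnb3 from -0.0663 to 0.16, Plxnd1 from -0.00732 to 0.0632, Rhoa from -0.0594 to 0.0058, Sema3c from -0.358 to 0.0994, Sema3f from -0.0329 to 0.33 and Sema4c from -0.0462 to 0.0558. Sema3b was called lower with limma-voom (-1.25, adjusted p = 0.0368), and Sema3g without the low-count filter (-1.52, edgeR, adjusted p = 0.0360). The cause of these changes was not tested. For genes under about 1 CPM, depth limits what could be called.

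The deviations of same-numbered WT and KO libraries were weakly correlated (0.09, -0.04, -0.11, -0.01 and 0.18), and 2 of 5 correlated best with their own number. No label ties a KO column to 1 KO sample, so these values cannot decide whether the numbers mark pairs. With the number as a replicate block 3780 genes were called (1765 higher and 2015 lower), and 4 semaphorins and plexins were lower and 0 higher, including Sema4d at -0.80 and Sema4a at -0.21 (edgeR, adjusted p = 6.5e-05 and 0.0455). Itgb1 lost its call (adjusted p = 0.0606) and Slit3 gained one (0.0332).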
